A study of Mus musculus with 21 samples.

Results

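Arntl, Clock and Npas2 encode the activators of the mammalian circadian clock, and their RNA was measured over the day in the fat of germ-free and of conventionally raised mice. They were taken from the count table by these 3 symbols, and are 3 of its 38087 genes. All 3 were among the 18334 genes that passed the filter on low counts.

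The tissue was the white fat beside the epididymis, a visceral depot, of male C57BL/6j mice aged 15 to 16 weeks and fed ad libitum. Germ-free mice, which live without microbes, gave 9 libraries: 2 each at zeitgeber time (ZT, hours after lights on) 6, 10 and 22, and 1 each at ZT02, ZT14 and ZT18. Conventionally raised mice, which carry a gut microbiota and are called conventional here, gave 12 libraries, 2 at each of those 6 times. The labels do not say whether the libraries of a group came from separate mice, so p-values measure the spread between libraries, which may be partly technical. The design addresses whether the daily profile of fat differs between mice with and without a microbiota.

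The clock is a transcription loop. The protein of Arntl, BMAL1, pairs with CLOCK or with its paralogue NPAS2, and the pair switches on genes that carry E-boxes, among them the Period and Cryptochrome genes, whose proteins then repress the pair. A further loop runs through the nuclear receptors REV-ERB (Nr1d1, Nr1d2), which repress, and ROR, which activate, at ROR elements of the Arntl promoter. In mouse tissues Arntl RNA is high late in the dark phase and low around dusk, opposite to Nr1d1 and Dbp. Clock RNA is known to vary less over the day than Arntl RNA.

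In the GENCODE M21 annotation of GRCm38, Arntl (ENSMUSG00000055116) lies on the plus strand of chromosome 7 from 113207465 to 113314126, Clock (ENSMUSG00000029238) on the minus strand of chromosome 5 from 76209868 to 76304792, and Npas2 (ENSMUSG00000026077) on the plus strand of chromosome 1 from 39193731 to 39363236. All 3 are protein-coding genes, with exon lengths of 2904, 7478 and 5627 bases in the deposited table. Exons of Arntl overlap those of the antisense gene Gm45355. The libraries were stranded, but the strand setting of the counting is not given in the sources used here, so reads of Arntl and of Gm45355 may not have been told apart. No gene has exons that overlap those of Clock or Npas2.

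The start regions of the 3 genes are shown because the ROR element is the known point at which the second loop reaches Arntl. The sequences are RefSeq's for GRCm38.p6, 5′ to 3′ on the gene's own strand, from 250 bases before to 50 after an annotated start. Arntl had 2 such windows, Clock 3 and Npas2 1. Both strands were searched for the ROR core AGGTCA, for its extended form TAGGTNA, which was chosen after the Arntl sequence had been read and can overlap the core, for the E-box CACGTG and for the D-box TTANGTAA. Matches are in capitals in the windows chr7:113207261-113207560 (Arntl, plus strand), chr5:76303453-76303752 (Clock, minus strand) and chr1:39194022-39194321 (Npas2, plus strand).
Arntl window 2: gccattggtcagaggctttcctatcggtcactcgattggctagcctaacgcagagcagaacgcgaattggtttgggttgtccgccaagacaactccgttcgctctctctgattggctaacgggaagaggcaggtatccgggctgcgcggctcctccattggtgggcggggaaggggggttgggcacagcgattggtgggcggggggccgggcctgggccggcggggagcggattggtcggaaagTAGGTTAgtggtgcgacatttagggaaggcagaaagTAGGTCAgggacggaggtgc
Clock window 3: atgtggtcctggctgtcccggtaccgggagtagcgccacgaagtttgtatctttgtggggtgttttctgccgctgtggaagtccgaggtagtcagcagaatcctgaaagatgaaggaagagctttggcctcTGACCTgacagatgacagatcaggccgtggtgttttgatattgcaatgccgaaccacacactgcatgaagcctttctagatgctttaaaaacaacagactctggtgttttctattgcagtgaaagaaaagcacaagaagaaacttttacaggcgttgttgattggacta
Npas2 window 1: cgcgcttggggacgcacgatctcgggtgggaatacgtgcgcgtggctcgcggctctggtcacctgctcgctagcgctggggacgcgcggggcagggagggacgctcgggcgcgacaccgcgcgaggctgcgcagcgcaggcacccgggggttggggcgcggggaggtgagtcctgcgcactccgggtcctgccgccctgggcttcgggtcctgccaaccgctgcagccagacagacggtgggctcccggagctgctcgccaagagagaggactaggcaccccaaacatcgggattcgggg
The Arntl window held TAGGTTA from base -6 and TAGGTCA from base 31, counted from the annotated start, and TAGGTCA contains the ROR core. The Clock window held the ROR core once, on the opposite strand from base -119, and the Npas2 window held none of the 4 motifs. In the other windows, Arntl window 1 held TAGGTTA from base 41, which is the same copy seen from another start, and Clock windows 1 and 2 held no match. No window of the 3 genes held the E-box or the D-box. Among 32817 windows of the same length, 16.3% held AGGTCA, 8.29% TAGGTNA, 7.15% CACGTG and 2.32% TTANGTAA. These matches describe letters and not binding, and a window without a match says only that the letters are not in these 300 bases.

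Total counts ranged from 28900903 to 48348181 in germ-free and from 24388294 to 37097857 in conventional libraries. The label of fat was checked against 6 adipocyte markers (Adipoq, Plin1, Fabp4, Cidec, Lep and Pparg), which were all above 0 in every library, with a summed level of 13346 to 20886 CPM (counts relative to library size) in germ-free and 11711 to 18028 CPM in conventional libraries. Of 5 markers of ciliated duct cells, 2 were above 0 in every library, and their sum ran from 0.446 to 317 CPM (median 3.94) in germ-free and from 0.4662 to 125 CPM (median 20.3) in conventional libraries. In 6 libraries the sum exceeded 5 times the median of all libraries: germ-free ZT06 replicate 2 and ZT22 replicate 1, and conventional ZT02 replicates 1 and 2, ZT14 replicate 2 and ZT18 replicate 2. Their part in the results was not tested, and values without them are given where a call changed. The 5 liver markers summed to 37.6 to 403 CPM in germ-free and 20.7 to 543 CPM in conventional libraries. Highest were the lone germ-free ZT14 library and conventional ZT02 replicate 2. The 5 spermatid markers summed to 0.0265 to 57.8 and 0 to 136 CPM, highest in germ-free ZT06 replicate 1 and conventional ZT22 replicate 1. The part of these 4 libraries in the results was not tested. The 6 epididymis and accessory gland markers summed to 0.0854 to 3.78 and 0.0999 to 1441 CPM. The 1441 CPM stood in conventional ZT10 replicate 2 alone, where the next highest library had 3.92 CPM; its part in the results was not tested. Macrophage markers summed to 670 to 1267 CPM in germ-free and 701 to 1131 CPM in conventional libraries, endothelial markers to 518 to 753 and 434 to 701 CPM, fibroblast and progenitor markers to 1765 to 2382 and 1587 to 2533 CPM, mesothelial markers to 174 to 522 and 204 to 425 CPM, and lymphocyte markers to 3.59 to 9.91 and 4.01 to 12.0 CPM. The Spearman correlation, across genes, of each library's deviation from the mean of all libraries with exon length was -0.307 to 0.104 in germ-free and -0.110 to 0.182 in conventional libraries, and its part in the results was not tested. In whole tissue, fewer cells of a type and less RNA per cell cannot be told apart.

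Per length, Clock was the most abundant of the 3 RNAs and Npas2 the least in every library of both arms. In RPKM, which scales counts to library size and exon length, Clock averaged 21.3 ± 5.77 in germ-free and 22.5 ± 4.82 in conventional libraries (SD, n = 9 and 12, over all times). Arntl averaged 8.00 ± 8.00 RPKM in germ-free and 6.08 ± 3.85 RPKM in conventional libraries. Npas2 averaged 0.611 ± 0.662 RPKM in germ-free and 0.503 ± 0.273 RPKM in conventional libraries. The SD here holds the change over the day, and relative to the mean it was smallest for Clock. The means pool times with unequal numbers of germ-free libraries, so they do not compare the arms.

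Arntl, the partner that both kinds of activator pair need, had in germ-free libraries 45.1 CPM at ZT02, 5.97 and 6.10 CPM at ZT06, 2.04 and 1.96 CPM at ZT10, 3.78 CPM at ZT14, 42.1 CPM at ZT18, and 44.7 and 57.2 CPM at ZT22. In conventional libraries it had 24.1 and 27.4 CPM at ZT02, 15.1 and 15.3 CPM at ZT06, 3.56 and 3.13 CPM at ZT10, 2.98 and 7.66 CPM at ZT14, 31.2 and 21.4 CPM at ZT18, and 30.8 and 29.1 CPM at ZT22. Both arms were high from ZT18 to ZT02 and low at ZT10 and ZT14, and they differed most in shape at ZT06. There the germ-free mean was 6.04 CPM, against 2.00 CPM at ZT10 and 50.9 CPM at ZT22. The conventional mean at ZT06 was 15.2 CPM, against 3.35 CPM at ZT10 and 29.9 CPM at ZT22. In germ-free mice the order of the mean levels ran from ZT22 through ZT02, ZT18, ZT06 and ZT14 to ZT10, and only ZT22 and ZT02 overlapped as neighbours in that order. There ZT02, ZT18 and ZT14 had a single library each, which leaves less room for overlap. In conventional mice the order was ZT22, ZT18, ZT02, ZT06, ZT14, ZT10, with ZT22, ZT18 and ZT02 overlapping in turn, and ZT14 overlapping ZT10. The highest mean, at ZT22, was 25.4 times the lowest, at ZT10, in germ-free mice and 8.95 times in conventional mice.

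Clock, which encodes the usual partner of BMAL1, had in germ-free libraries 212 CPM at ZT02, 163 and 129 CPM at ZT06, 107 and 106 CPM at ZT10, 124 CPM at ZT14, 189.6 CPM at ZT18, and 203 and 199.6 CPM at ZT22. In conventional libraries it had 197 and 191 CPM at ZT02, 181 and 180.1 CPM at ZT06, 107 and 125 CPM at ZT10, 118 and 137 CPM at ZT14, 204 and 175 CPM at ZT18, and 202 and 202 CPM at ZT22. Like Arntl it was lowest at ZT10 in both arms, and its highest mean was at ZT02 in germ-free and at ZT22 in conventional mice. It had a range of 1.99 times between the highest and lowest library in germ-free mice and of 1.90 times in conventional mice. In germ-free mice no neighbours overlapped in the order ZT02, ZT22, ZT18, ZT06, ZT14, ZT10, although ZT02, ZT18 and ZT14 had a single library each. In conventional mice the order was ZT22, ZT02, ZT18, ZT06, ZT14, ZT10, and ZT02 overlapped ZT18, ZT18 overlapped ZT06, and ZT14 overlapped ZT10.

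Npas2, the paralogue of Clock that can take its place in the pair, had in germ-free libraries 4.72 CPM at ZT02, 1.37 and 1.47 CPM at ZT06, 0.477 and 0.769 CPM at ZT10, 0.617 CPM at ZT14, 2.34 CPM at ZT18, and 9.75 and 9.45 CPM at ZT22. In conventional libraries it had 3.20 and 4.34 CPM at ZT02, 3.81 and 4.50 CPM at ZT06, 1.13 and 0.688 CPM at ZT10, 0.918 and 1.24 CPM at ZT14, 3.48 and 2.11 CPM at ZT18, and 4.98 and 3.53 CPM at ZT22. The germ-free profile was a single high at ZT22, and the conventional profile was a plateau in which ZT22, ZT06, ZT02 and ZT18 overlapped in turn, above ZT14 and ZT10, which overlapped each other. Its counts ran from 17 to 427 in germ-free and from 27 to 152 in conventional libraries. The lowest count, 17 at germ-free ZT14, corresponds to 0.617 CPM with a 95% Poisson interval of 0.359 to 0.988 CPM, which covers counting error only. In germ-free mice the order was ZT22, ZT02, ZT18, ZT06, ZT10, ZT14, and only ZT10 and ZT14 overlapped as neighbours. There ZT02, ZT18 and ZT14 had a single library each, which leaves less room for overlap.

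**Figure D1:**
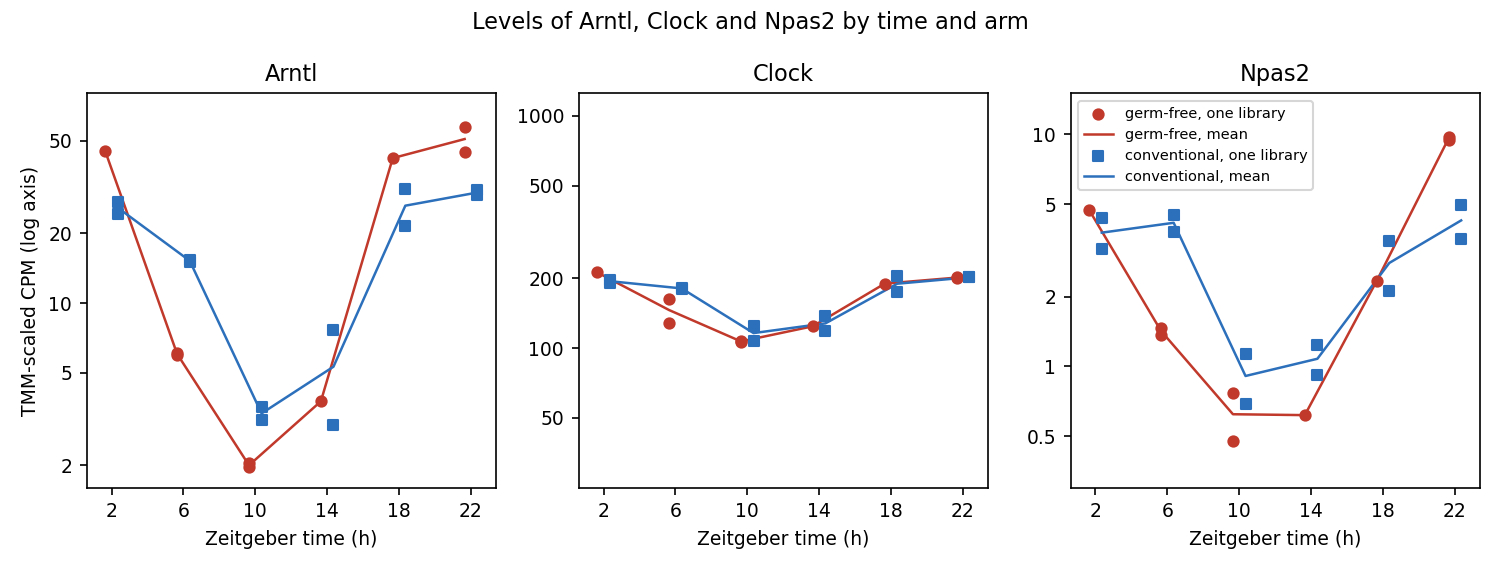
TMM-scaled CPM of Arntl, Clock and Npas2 in each library against zeitgeber time in hours, on log axes that span the same fold in each panel, with circles for germ-free and squares for conventional libraries and lines through the means at each time. Arntl lies between 1.96 and 57.2 CPM in germ-free and between 2.98 and 31.2 CPM in conventional libraries, while Clock stays between 106 and 212 CPM in germ-free and between 107 and 204 CPM in conventional libraries.

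All 3 genes varied over the day in both arms, in a model whose period was set to 24 h. The test was edgeR's quasi-likelihood F test of a cosine and a sine per arm, over 2 degrees of freedom, with Benjamini-Hochberg adjustment over 18334 genes and a threshold of 0.05, and an amplitude is the log2 distance from the middle to the top of the fitted cosine. In germ-free mice 3 of 3 members passed, where 4.64% of all genes did, and in conventional mice 3 of 3 passed, where 0.813% did. Arntl had a fitted amplitude of 2.54 and a peak at 22.3 h in germ-free mice (adjusted p = 8.07e-05), and an amplitude of 1.58 and a peak at 23.0 h in conventional mice (adjusted p = 0.00687). Its p-value was number 10 from the smallest in germ-free and number 33 in conventional mice. The 3 genes were chosen with earlier results of these data known, so these shares and ranks are descriptions. Clock had an amplitude of 0.49 and a peak at 23.0 h in germ-free mice (adjusted p = 0.00175), and an amplitude of 0.41 and a peak at 23.5 h in conventional mice (adjusted p = 0.0101). Npas2 had an amplitude of 2.06 and a peak at 23.1 h in germ-free mice (adjusted p = 0.000101), and an amplitude of 1.15 and a peak at 0.601 h in conventional mice (adjusted p = 0.0271). The peaks of the 3 genes thus all lay between 22.3 h and 0.601 h of the next day. In germ-free mice the calls held when any single library was left out, and also without the 6 libraries of high duct markers. In conventional mice the call on Clock was lost without ZT14 replicate 1 (adjusted p = 0.0530) and without those 6 libraries (adjusted p = 0.0747). The call on Npas2 in conventional mice was lost without the 6 libraries (adjusted p = 0.0987), without ZT14 replicate 1 (adjusted p = 0.119) or replicate 2 (0.0601), without ZT10 replicate 1 (0.0814) or replicate 2 (0.0610), and without ZT22 replicate 1 (0.0613). In least-squares cosine fits of log2 CPM with single libraries left out, the conventional amplitude stayed between 0.36 and 0.43 for Clock and between 1.01 and 1.27 for Npas2, and without the 6 libraries it was 0.48 for Clock and 1.47 for Npas2.

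The fitted amplitudes of Arntl and Npas2 were larger in germ-free mice, but no difference of rhythms passed the adjusted threshold. In the edgeR test that compared the fitted cosine and sine between arms, 0 of 3 members passed and 0 of 18334 genes did (0%). At an unadjusted p under 0.05, 2 of the members and 1415 genes (7.72%) were counted, and DESeq2 called 40 genes, none of them a member. The members counted at that level were Npas2 (adjusted p = 0.583) and Arntl (adjusted p = 0.607), while Clock was not (adjusted p = 0.850). In a least-squares cosine fit of log2 CPM, the amplitude of Arntl was 2.49 ± 0.20 in germ-free and 1.65 ± 0.25 in conventional mice (SE), a difference of 0.84 ± 0.32. Npas2 had 1.99 ± 0.15 in germ-free and 1.14 ± 0.22 in conventional mice, a difference of 0.85 ± 0.27, and Clock 0.49 ± 0.07 and 0.41 ± 0.07, a difference of 0.08 ± 0.09. The peak in germ-free mice minus that in conventional mice was -0.764 ± 0.682 h for Arntl, -0.561 ± 0.851 h for Clock and -1.29 ± 0.809 h for Npas2. All 3 estimates put the germ-free peak earlier, without a test of the difference beyond that of the rhythms. Without the lone germ-free ZT18 library, the germ-free peak moved to 22.88 h for Arntl and to 23.51 h for Clock. The conventional peaks in these fits were 23.12 h for Arntl and 23.50 h for Clock, so the earlier estimate of Clock rested on that library. The share of the variance held by the cosine (R2) was 0.962 in germ-free and 0.831 in conventional libraries for Arntl, 0.907 and 0.801 for Clock, and 0.966 and 0.747 for Npas2.

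ZT22 and ZT10 lie 12 h apart, near the high and the low of the 3 genes, and both have 2 libraries in each arm. The 2 germ-free ZT22 libraries gave the highest median chi-square between the libraries of a group, 9.24 over all genes. In the other groups with 2 libraries it was 1.70 to 3.92, and its part in the results was not tested. All 3 genes were higher at ZT22 than at ZT10 in both arms. This contrast sits near the extremes of these genes and was chosen with earlier results of these data known, which favours them. Shares and ranks among all genes are therefore descriptions here. In germ-free mice 3 of 3 members passed edgeR's test of that contrast, against 5.32% of all genes, and in conventional mice 3 of 3 passed, against 0.0818%. The log2 fold change of Arntl was 4.67 ± 0.35 (SE) in germ-free mice (adjusted p = 0.000168, the smallest p-value of all genes tested) and 3.16 ± 0.33 in conventional mice (adjusted p = 0.00349). That of Npas2 was 3.94 ± 0.37 in germ-free mice (adjusted p = 0.000315) and 2.23 ± 0.34 in conventional mice (adjusted p = 0.0457), or 15.4-fold and 4.69-fold. That of Clock was 0.91 ± 0.12 in germ-free mice (adjusted p = 0.00181) and 0.80 ± 0.12 in conventional mice (adjusted p = 0.0414). In germ-free mice every call held with any single library left out. In conventional mice the call on Arntl was lost without ZT10 replicate 1 (adjusted p = 0.0717), ZT10 replicate 2, the library high in gland markers (0.134, with a log2 fold change of 3.07), or ZT22 replicate 1 (0.0845). The conventional call on Clock was lost in 12 of the 21 fits that left out 1 library, namely those without 1 of conventional ZT06 replicates 1 and 2, ZT10 replicates 1 and 2, ZT14 replicates 1 and 2, ZT18 replicate 1 and ZT22 replicates 1 and 2, and germ-free ZT10 replicates 1 and 2 and ZT22 replicate 2, with adjusted p reaching 0.421. That on Npas2 was lost in 15 of the 21, namely those without either replicate of conventional ZT02, ZT06, ZT10, ZT14 or ZT22, either of germ-free ZT06 or ZT10, or germ-free ZT22 replicate 2, with adjusted p reaching 0.425, and it was also lost without the 6 libraries of high duct markers (adjusted p = 0.0715). Across these fits the log2 fold change itself stayed between 0.69 and 0.91 for Clock and between 1.91 and 2.62 for Npas2.

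The swing of Arntl in germ-free mice minus that in conventional mice was 1.50 ± 0.45 on the log2 scale (95% interval 0.52 to 2.49; adjusted p = 0.352, edgeR). For Npas2 the difference of swings was 1.71 ± 0.48 (0.67 to 2.75; adjusted p = 0.315), and for Clock 0.11 ± 0.16 (-0.24 to 0.47; adjusted p = 0.870). Thus 0 of 3 members passed after adjustment and 0 of 18334 genes did (0%), while 2 members and 1581 genes had an unadjusted p under 0.05 and DESeq2 called 145 genes, none of them a member. With those 6 libraries of high duct markers left out, a setting chosen after the data were seen, the difference of Arntl was 1.68 and passed (adjusted p = 0.0207), with 29 genes called in all. That setting leaves 1 germ-free library at ZT22. Leaving out germ-free ZT22 replicate 1 alone gave the same 1.68, which did not pass (lowest adjusted p of any single omission 0.121). The interval of Clock covers 0 and reaches 0.47, so differences in its swing up to that size lie inside it.

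Set against each other at each time, the arms lay in opposite order at ZT06 and at ZT22 for Arntl and Npas2, while Clock overlapped between the arms at ZT22. At ZT06 all 3 genes were lower in both germ-free libraries than in both conventional libraries, as were 22.3% of all genes tested. At ZT22 Arntl and Npas2 were higher in both germ-free libraries than in both conventional ones, as were 25.5% of all genes. None of the tests of the 3 genes at the 6 times passed after adjustment in edgeR. At ZT06, where 0.0382% of genes were called, the log2 fold change of germ-free over conventional was -1.33 ± 0.31 for Arntl (SE; adjusted p = 0.127), -1.55 ± 0.33 for Npas2 (adjusted p = 0.111) and -0.31 ± 0.12 for Clock (adjusted p = 0.320). DESeq2, which called 378 genes at that time against 7 in edgeR, called Arntl (adjusted p = 0.00434) and Npas2 (adjusted p = 0.00353), and edgeR called Arntl when conventional ZT14 replicate 1 (adjusted p = 0.0391) or replicate 2 (0.0347) was left out. The estimate of Clock at ZT06 was -0.50 without germ-free ZT06 replicate 1 and -0.15 without germ-free ZT06 replicate 2. At ZT22, where 5.2% of genes were called, Npas2 had 1.17 ± 0.32 (adjusted p = 0.0559), Arntl 0.77 ± 0.29 (adjusted p = 0.135) and Clock -0.00 ± 0.12 (adjusted p = 0.985). DESeq2, which called 1989 genes at ZT22 against 954 in edgeR, called Npas2 there (adjusted p = 0.00849). With edgeR the call on Npas2 at ZT22 was gained without conventional ZT18 replicate 1 (adjusted p = 0.0460) or replicate 2 (0.0473), or without germ-free ZT10 replicate 1 (0.0457) or replicate 2 (0.0458). The call on Arntl at ZT22 was gained without conventional ZT14 replicate 1 (adjusted p = 0.0353) or replicate 2 (0.0331), and without the 6 libraries of high duct markers (log2 fold change 0.94, adjusted p = 0.00672). Both times hold germ-free libraries from that set of 6, ZT06 replicate 2 with a ciliated sum of 154 CPM and ZT22 replicate 1 with 317 CPM, and without them 1 germ-free library is left at each.

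At the remaining times the differences were smaller or rested on a single germ-free library, which was taken to vary like the other groups. At ZT02 (0.0327% of genes called) germ-free Arntl, Clock and Npas2 were each above both conventional libraries, with log2 fold changes of 0.81 ± 0.35 (adjusted p = 0.283), 0.13 ± 0.14 (0.683) and 0.32 ± 0.39 (0.702). At ZT10 (0.207% called) Arntl was lower in both germ-free libraries, with a log2 fold change of -0.74 ± 0.34 (adjusted p = 0.274), whereas Clock and Npas2 overlapped between the arms, with -0.12 ± 0.12 (0.651) and -0.54 ± 0.35 (0.455). Without the 6 libraries of high duct markers, none of which is from ZT10, the difference of Arntl at ZT10 was -0.75 and passed (adjusted p = 0.0407). At ZT14, where edgeR called 0 genes (0%), 2474 had an unadjusted p under 0.05 and DESeq2 called 200, germ-free Npas2 was below both conventional libraries, with a log2 fold change of -0.80 ± 0.45 (adjusted p = 0.462), and Arntl (-0.49 ± 0.41, adjusted p = 0.632) and Clock (-0.04 ± 0.14, adjusted p = 0.918) lay within their range. The estimate of Arntl at ZT14 was -1.02 without conventional ZT14 replicate 1 and 0.34 without conventional ZT14 replicate 2. With single libraries left out, the estimate of Npas2 at ZT10 ran from -0.93 (without germ-free ZT10 replicate 2) to -0.15 (without conventional ZT10 replicate 1), and that of Clock at ZT10 from -0.22 to -0.01 (without conventional ZT10 replicate 1 and replicate 2, in that order). At ZT18 (0.153% called) germ-free Arntl was above both conventional libraries, by 0.68 ± 0.35 (adjusted p = 0.278), and Clock (0.00 ± 0.14, adjusted p = 0.996) and Npas2 (-0.25 ± 0.40, adjusted p = 0.745) lay within their range. There the estimate of Npas2 was -0.58 without conventional ZT18 replicate 2 and 0.16 without conventional ZT18 replicate 1, and that of Arntl was 0.42 and 0.98. Over the day, germ-free Arntl was above the conventional libraries at 3 times, below at 2 and overlapping at 1; Clock was above at 1, below at 1 and overlapping at 4; Npas2 was above at 2, below at 2 and overlapping at 2. Such separation is common with 1 or 2 libraries against 2: the share of all genes whose arms did not overlap ran from 43.6% at ZT06 to 81.1% at ZT02, so these counts are descriptions.

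**Figure D2:**
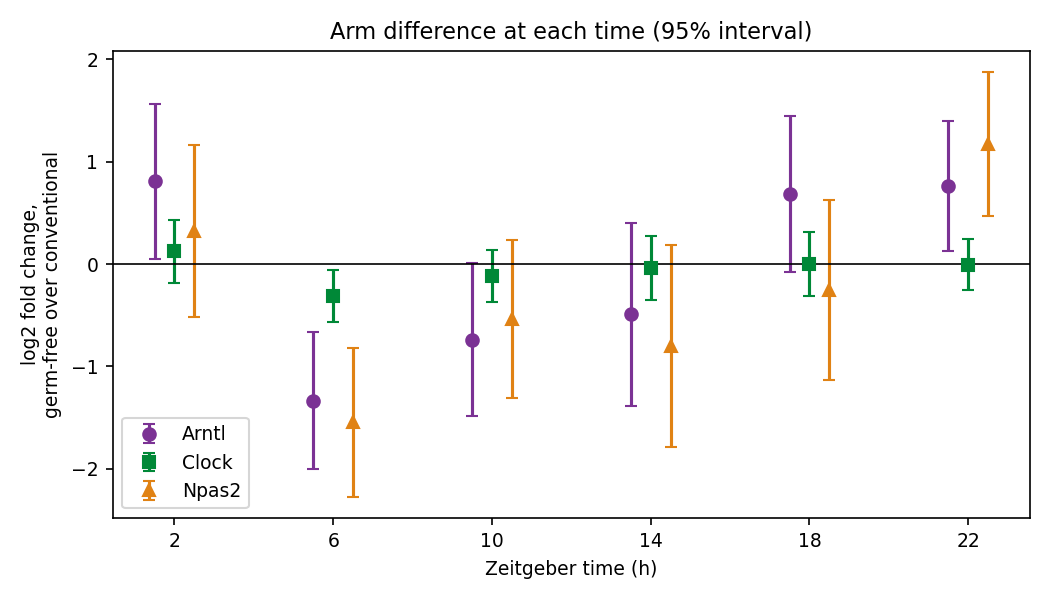
Log2 fold change of germ-free over conventional libraries for Arntl, Clock and Npas2 at each zeitgeber time in hours, with 95% intervals from the edgeR fit of 12 groups; a value above 0 is higher in germ-free mice. Arntl and Npas2 lie at -1.33 and -1.55 at ZT06 and at 0.77 and 1.17 at ZT22, and Clock stays between -0.31 and 0.13.

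With time held, the mean level over the day did not pass between the arms for any of the 3 genes (0 of 3, where 26.9% of all genes passed in edgeR). At an unadjusted p under 0.05 the count of members was also 0, and DESeq2 called none of them among its 5358 genes. The log2 fold change of germ-free over conventional was -0.04 ± 0.24 for Arntl (95% interval -0.56 to 0.48; adjusted p = 0.935), -0.07 ± 0.06 for Clock (-0.19 to 0.04; adjusted p = 0.352) and -0.24 ± 0.27 for Npas2 (-0.81 to 0.32; adjusted p = 0.552). The intervals of Arntl and Npas2 are wide, and mean differences from -0.56 to 0.48 lie inside that of Arntl.

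The balance between the 3 RNAs moved over the day, with Arntl and Npas2 varying far more than Clock. Arntl stood at 0.0476 to 0.738 times the RPKM of Clock in germ-free libraries (median 0.122) and at 0.0646 to 0.394 times in conventional libraries (median 0.267). The medians of Arntl over Clock pool times with unequal numbers of germ-free libraries, so they do not compare the arms. At ZT22 this ratio was 0.567 and 0.738 in germ-free libraries, above 0.392 and 0.371 in conventional libraries, and at ZT06 it was 0.0945 and 0.122 in germ-free libraries, below 0.214 and 0.219 in conventional libraries. Npas2 was a minor form beside its paralogue throughout, at 0.00589 to 0.0639 times the RPKM of Clock in germ-free and 0.00732 to 0.0332 times in conventional libraries. At ZT22 it stood at 0.0639 and 0.0629 times Clock in germ-free libraries, against 0.0328 and 0.0233 times in conventional libraries. Npas2 relative to Arntl was lowest at ZT18 in both arms, 0.0286 in the germ-free library and 0.0576 and 0.0508 in the conventional libraries. These ratios compare levels per length within a library and carry no test.

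**Figure D3:**
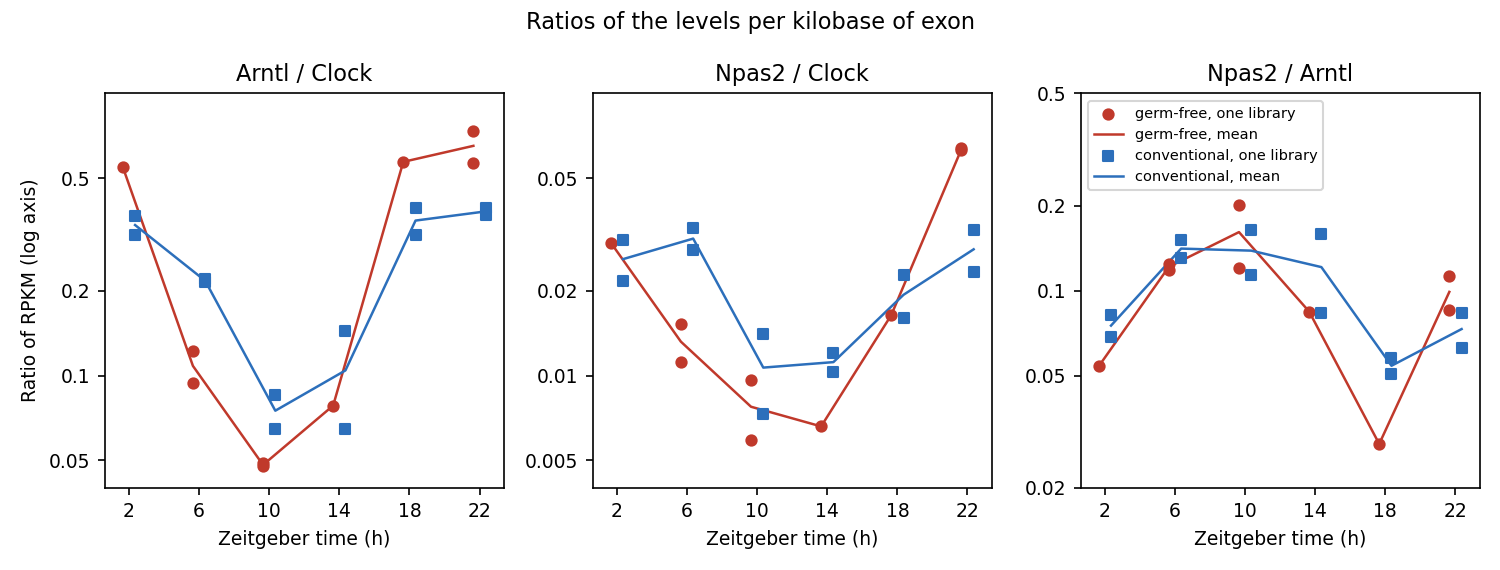
Ratios of RPKM in each library against zeitgeber time in hours, for Arntl over Clock, Npas2 over Clock and Npas2 over Arntl, on log axes, with circles for germ-free and squares for conventional libraries and lines through the means. Arntl over Clock reaches 0.738 in germ-free and 0.394 in conventional libraries, and Npas2 over Arntl is lowest at ZT18 in both arms.

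Across the 21 libraries the 3 genes followed each other. Pearson's r of log2 CPM was 0.96 between Arntl and Clock (0.96 in the 9 germ-free and 0.97 in the 12 conventional libraries), 0.92 between Arntl and Npas2 (0.93 and 0.91) and 0.89 between Clock and Npas2 (0.90 and 0.91). These are descriptions, since all genes share the libraries, their scaling and the times of day. Outside the 3, the genes most alike Arntl were Dtx4 (r = 0.97), a deltex ubiquitin ligase, Leo1 (0.96), a subunit of the PAF1 elongation complex, and Med24 (0.92), a Mediator subunit. Dtx4 was also the gene most alike Npas2 (0.94), ahead of Arntl and Clock, and stood behind Arntl alone for Clock (0.91). Clock was further alike Polr3b (0.91), a subunit of RNA polymerase III, Leo1 (0.91) and Dapk1 (0.91), a protein kinase, and Npas2 was further alike Med24 (0.89) and Ttc27 (0.88). The most opposed were Dbp (-0.97), Ciart (-0.96) and Nr1d2 (-0.94) for Arntl, Camta1 (-0.94), Ciart (-0.93) and Acap2 (-0.92) for Clock, and Tef (-0.95), Camta1 (-0.93) and Per3 (-0.91) for Npas2. Dbp and Tef are outputs of the clock, and Ciart, Nr1d2 and Per3 repress it.

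Of 32 other genes of the pathway that were listed by role, 31 passed the filter. The list was made with earlier results of these data known, so shares among it are descriptions. In germ-free mice 14 of the 31 had a rhythm past the threshold and in conventional mice 12, against 4.64% and 0.813% of all genes, and the median amplitude of the 31 was 0.48 in germ-free and 0.27 in conventional mice, where that of all genes was 0.18 and 0.13. Arntl2, the paralogue of Arntl, passed in neither arm (adjusted p = 0.980 in germ-free and 0.759 in conventional mice). Among the nuclear receptors, Nr1d1, Nr1d2 and Rora passed in both arms. Nr1d1 peaked at 7.36 h with an amplitude of 2.26 in germ-free and at 6.74 h with 1.44 in conventional mice, and Nr1d2 at 9.52 h with 1.47 and at 9.97 h with 0.86. Of the 8 repressors, 5 passed in germ-free mice and the same 5 in conventional mice: Per1, Per2, Per3, Cry1 and Ciart. Cry1 peaked at 18.4 h in germ-free and 17.3 h in conventional mice, closer to the activators than the Period genes, among which Per3 peaked at 11.6 h and 12.0 h. All 4 output factors passed in germ-free and 3 in conventional mice, where Nfil3, which represses at D-boxes and peaked at 19.6 h and 20.4 h, had an adjusted p of 0.208. Dbp peaked at 9.70 h with an amplitude of 2.33 in germ-free and at 10.2 h with 1.70 in conventional mice. Among the 14 modifiers and cofactors, Nampt, of the NAD salvage pathway, and the acetyltransferase gene Kat2b passed in germ-free mice, and the casein kinase gene Csnk1e in conventional mice.

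**Figure D4:**
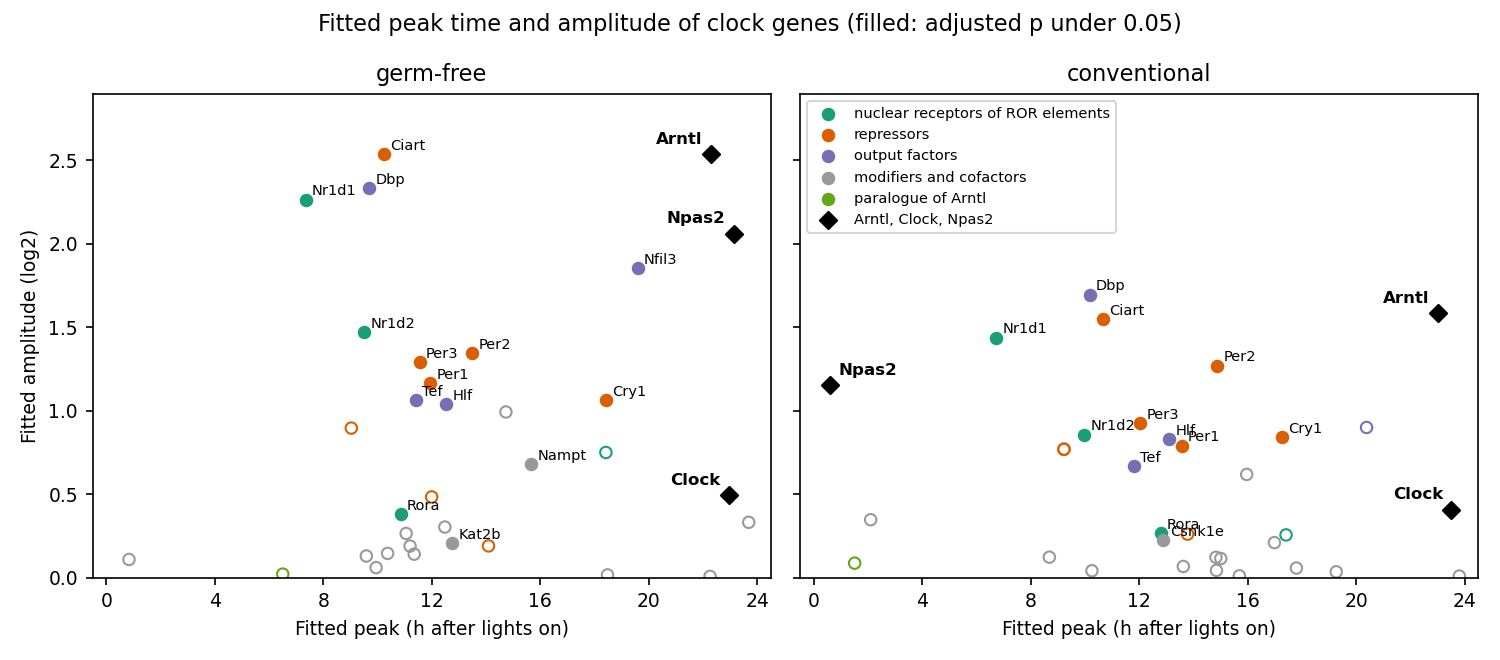
Fitted peak in hours against fitted log2 amplitude for Arntl, Clock and Npas2 (diamonds) and 31 listed clock genes coloured by role, in germ-free mice on the left and conventional mice on the right; filled points had an adjusted p under 0.05. The activators sit at 22.3 to 23.1 h in germ-free mice, and Nr1d1, Dbp and Ciart at 7.36 to 10.2 h.

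Between ZT22 and ZT10, 14 of the 31 listed genes passed in germ-free mice, 2 higher and 12 lower at ZT22, against 5.32% of all genes. In conventional mice 5 passed, all lower at ZT22, against 0.0818% of all genes. The 3 activators were higher at ZT22 in both arms. In germ-free mice the 2 that were higher with the activators were Nfil3 (log2 fold change 3.13 ± 0.28, adjusted p = 0.000254) and Cry1 (1.23 ± 0.19, adjusted p = 0.00538). The largest falls among the genes named by smallest p were those of Ciart (-4.65 ± 0.38), Dbp (-4.29 ± 0.34) and Nr1d1 (-3.66 ± 0.31). In conventional mice Ciart (-3.21 ± 0.36), Dbp (-3.32 ± 0.33), Per3 (-1.51 ± 0.18), Tef (-1.28 ± 0.19) and Hlf (-1.44 ± 0.21) passed. Tef and Hlf were near the threshold, each with an adjusted p of 0.0414 in edgeR's test. No listed gene passed the test of a difference of rhythms or of swings between the arms. Nr1d1 had a swing of -3.66 ± 0.31 in germ-free and -1.48 ± 0.29 in conventional mice, a difference of -2.18 ± 0.41 (adjusted p = 0.142). For Nfil3 the swings were 3.13 ± 0.28 and 1.05 ± 0.27, a difference of 2.08 ± 0.38 (adjusted p = 0.141). For Cry1 they were 1.23 ± 0.19 and 0.29 ± 0.20, a difference of 0.94 ± 0.27 (adjusted p = 0.346). Bhlhe40 was among those with the larger swing in conventional mice, with -0.70 ± 0.35 in germ-free and -1.98 ± 0.37 in conventional mice (adjusted p = 0.510). In mean level over the day, where the 3 activators did not pass, 8 of the 31 did, against 26.9% of all genes. Among them Rora (0.16 ± 0.05), Cry1 (0.62 ± 0.13), Bhlhe40 (0.999 ± 0.286) and Csnk2a1 (0.14 ± 0.03) were higher in germ-free mice, and Gsk3b (-0.29 ± 0.06), Ep300 (-0.63 ± 0.10) and Crebbp (-0.62 ± 0.10) were lower.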

How the data were processed

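Total RNA of 21 libraries was analysed. Per the labels' protocols, RNA came from a column kit and stranded libraries depleted of ribosomal RNA were read as paired ends. The submitters' processing notes name STAR 2.4.0i and the build mm10. Which program, strand setting and annotation gave the counts is not given in the sources used. The authors deposited raw read counts over exons per gene, and the same deposited table gives an exon length per gene, used here for RPKM.

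The software was edgeR 4.0.16, DESeq2 1.42.0 and limma 3.58.1 under R 4.3.3, with matplotlib 3.10.9 under Python 3.11.15 for plots. The filter was filterByExpr. Library sizes were scaled by TMM, and CPM and RPKM use those sizes. edgeR's quasi-likelihood F tests used 3 models of all 21 libraries: arm with time as a factor, a mean, cosine and sine of 24 h per arm, and 12 arm-by-time groups with 9 residual degrees of freedom. Benjamini-Hochberg adjustment ran over all 18334 genes. Least-squares cosine fits and correlations used log2 CPM with a prior count of 2. Scripts were tested on simulated counts.

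The 3 members were named in every comparison. For likeness, the 5 most and 3 least correlated genes were named, leaving out placeholder models and pseudogenes, and from each pathway role up to 4 genes with the smallest p. A gene that this rule names is not reported here. Ciart is held in the table under an older symbol and was matched by gene identifier. The members, lists and tests were chosen with earlier results of these data known. Alternatives were another scaling, DESeq2, no filter, a replicate block, time as a factor, a smaller prior count, the 3 times at which both arms have 2 libraries, and leaving out each library. Leaving out the libraries of high duct markers, and the contrast of ZT22 with ZT06, were added after seeing the data.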

Additional observations from a re-analysis of the deposited data

Results flagged for a closer look

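The difference between the arms had opposite signs at ZT06 and ZT22 for Arntl and for Npas2, with both germ-free libraries below both conventional ones at ZT06 and above both at ZT22. Of all genes tested, 22.3% lay below in this way at ZT06 and 25.5% above at ZT22. The share of genes with both was not computed, so the pattern is a description. The arm difference at ZT22 minus that at ZT06 was 2.10 ± 0.42 on the log2 scale for Arntl (SE; adjusted p = 0.196, edgeR) and 2.72 ± 0.46 for Npas2 (adjusted p = 0.146). For Clock it was 0.30 ± 0.16 (adjusted p = 0.589), and its libraries overlapped at ZT22. The contrast was chosen after these values had been seen, and it called 2 of 18334 genes (0.0109%), neither of them one of the 3. No germ-free library stood apart from the fitted curve of any of the 3 genes by Dixon's criterion, and the conventional arm, with 12 libraries, was not tested for this.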

How the results depend on the processing

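The rhythms of the 3 genes in germ-free mice, and their higher level at ZT22 than at ZT10 there, passed under every alternative run. DESeq2 called 2020 genes rhythmic in germ-free mice and 781 in conventional mice, 40 with a difference of rhythms, 2158 and 150 with a swing in germ-free and conventional mice, and 145 with a difference of swings. With time as a 6-level factor the rhythm counts were 526 in germ-free and 258 in conventional mice. Restricting the comparison of levels to ZT06, ZT10 and ZT22 gave 1712 genes, and the level of Arntl was then -0.41 (adjusted p = 0.383). With no filter, 36 genes had a swing in conventional mice and 3 a difference of swings. Leaving out the libraries of high duct markers, which left no conventional library at ZT02, Clock (adjusted p = 0.0747) and Npas2 (0.0987) missed the threshold for a conventional rhythm and Npas2 that for a conventional swing (2.23 on the log2 scale), the difference of swings of Arntl passed (1.68), and 61 genes had a conventional rhythm, 37 a conventional swing and 29 a difference of swings. Conventional amplitudes were then larger, at 1.89 for Arntl (peak at 23.8 h), 0.48 for Clock and 1.47 for Npas2.

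Leaving out each library in turn, the adjusted p of the conventional rhythm ranged from 0.00948 to 0.0530 for Clock and from 0.0125 to 0.119 for Npas2. The conventional swing ranged from 3.07 to 3.25 for Arntl, 0.69 to 0.91 for Clock and 1.91 to 2.62 for Npas2. Counts ranged from 385 to 1110 for the germ-free and 54 to 262 for the conventional rhythm, 0 to 3 for their difference, 210 to 1430 for the germ-free and 0 to 22 for the conventional swing, and 0 to 63 for the difference of swings. Lone libraries were then assumed to vary like the other groups.

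Whether the replicate numbers in the titles pair the libraries was not settled by the check made. Over 36 pairs of groups, the differences between replicates 1 and 2 correlated from -0.59 to 0.60 (median 0.15). Of these correlations, 20 were above 0.1 and 12 were below 0. With the number as a replicate block, the conventional swings of Clock (0.80, adjusted p = 0.0564) and Npas2 (2.23, adjusted p = 0.0607) did not pass and 6 genes had a conventional swing; the block changed no other call on the 3 genes. Npas2, with as few as 17 counts, is the gene most limited by depth.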
